A study of Mus musculus with 6 samples.

Results

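The proteasome is the protease that degrades proteins marked with ubiquitin chains, and the genes described here are 48 mouse genes for its subunits, its activators, its assembly factors and its regulator *Nfe2l1*, chosen by name from a list and matched by gene identifier. Of these, 47 were among the 37620 genes of the count table, and *Psmb9* was not analysed here. They were measured by RNA-seq in embryonic stem cells (ESCs) of the mouse line E14, strain 129/Ola, in 3 wild-type libraries (WT 1 to WT 3) and 3 libraries of S138A mutant ESCs (S138A A to S138A C). The mutant carries the serine-to-alanine change S138A in UBE2D3, an E2 enzyme that passes ubiquitin to substrates together with an E3 ligase. Both groups grew in 15% serum with the cytokine LIF, which keeps ESCs undifferentiated, and no agent that set the groups apart is named. The mutant cells of the study were made by CRISPR/Cas9 editing and analysed as 1 homozygous clone, and revertant cells were not analysed here. Whether the RNA came from that clone, and whether the 3 libraries of a group are separate cultures, is not stated, so p-values measure the spread between these libraries, which may be technical. All 47 genes passed the filter on low counts, as did 16023 genes in all.

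The proteasome is built from a barrel, the core particle, and a cap, the regulatory particle. In the core particle, outer rings of alpha subunits (*Psma* genes) gate the entry and inner rings of beta subunits (*Psmb* genes) hold the protease sites, while in the regulatory particle a ring of ATPases (*Psmc* genes) unfolds the substrate and other *Psmd* subunits bind ubiquitin and remove it. Cells that lose proteasome activity are known to raise all these genes together through NFE2L1, a transcription factor that binds antioxidant response elements in their promoters, and ESCs are known for high proteasome activity.

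The core letters of that element, TGACNNNGC, were searched on both strands of the windows from 250 bases before to 50 bases after each start site (RefSeq, GRCm38.p6). A window was found for 41 of the 48 genes, and 7 of those genes (17.1%) held a match, against 14.0% of all genes with a window. Each match is shown here with the bases around it, since these are the promoters that later results refer back to. The sequences are written 5′ to 3′ on the strand of the gene, with the 9 matching letters in capitals. Those of *Adrm1*, *Psmd9*, *Psmb6* and *Psmb5* read along the gene, and those of *Psme4*, *Psmd12* and *Psmc6* lie on the opposite strand.

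Psmb6, chr11:70525337-70525366, plus strand: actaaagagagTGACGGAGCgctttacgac
Psmb5, chr14:54618024-54618053, minus strand: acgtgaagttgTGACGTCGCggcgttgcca
Psmc6, chr14:45329586-45329615, plus strand: gccagccagtaGCTAAGTCAggcattgctc
Adrm1, chr2:180171415-180171444, plus strand: ccgctcccctaTGACACAGCaacaataggg
Psmd12, chr11:107479278-107479299, plus strand: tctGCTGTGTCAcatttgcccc
Psme4, chr11:30771757-30771786, plus strand: gcgctgcggctGCAGCGTCAccagaagagc
Psmd9, chr5:123228148-123228177, plus strand: tatctagccggTGACCCCGCccacttccaa

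The match began 7 bases before the start site in *Psme4*, 9 in *Psmb6*, 31 in *Psmd9* and 47 in *Psmb5*, and 162 or more in *Adrm1*, *Psmc6* and *Psmd12*. The share of genes with a match was near that of all genes, and a match is a run of letters, not a measured binding site.

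The 6 libraries held between 33227593 and 37169770 counts. Counts were scaled by TMM, which sets library sizes by the bulk of the genes, and are given as CPM, the reads of a gene relative to the scaled library total. Along the first principal component (57.2% of the variance) WT 3 and S138A C were separated from the other 4 libraries. The second component (25.6%) separated the genotypes, with WT 1 to 3 at 23.2 to 28.8 and S138A A to C at -29.6 to -21.3. ESC markers were high in every library (*Pou5f1* 954 to 1429 CPM, *Nanog* 602 to 937 CPM, *Sox2* 427 to 526 CPM), and *Ube2d3* itself ranged from 304 to 473 CPM in wild-type and from 265 to 491 CPM in S138A mutant ESCs. The edit changes a codon, so the level of the RNA does not check the genotype.

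Levels of different genes are compared here per kilobase of the longest coding transcript (GENCODE M21, on GRCm38, while the counts were made on mm9). In wild-type ESCs the most abundant proteasome RNA was *Psmb6*, at 422 ± 32.1 CPM per kilobase (SD, n = 3). *Psmb4* followed at 239.6 ± 25.1, *Psmc5* at 230.0 ± 24.8, *Psmd2* at 199 ± 14.8 and *Psma4* at 181 ± 15.8 CPM per kilobase. *Psmb6* lay beyond the spread of the next gene, while *Psmb4* and *Psmc5* lay within 1 SD of each other, and the ranges of 1 SD around *Psmd2* and *Psma4* overlapped.

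The assembly factors had the lowest medians among the constitutive genes. The medians over subunit genes were 68.1 CPM per kilobase in the alpha ring, 107 in the beta ring, 124 among the ATPases, 114 in the rest of the base and 75.4 in the lid, against 17.6 for core particle assembly factors and 11.9 for regulatory particle assembly factors. Within each ring or cap, where the protein subunits are present in equal number, RNA levels spread by 8.11-fold in the alpha ring, 13.0-fold in the beta ring, 5.17-fold among the ATPases and 3.70-fold in the lid. The immunoproteasome subunit *Psmb8* had the lowest level of all, 1.25 ± 0.193 CPM per kilobase. The order depends on the transcript length used, since with the median length of annotated coding transcripts the level of 28 of the 47 genes moved by at least 1 SD, and *Psmd2* then came first at 895 CPM per kilobase and *Psme3* had 461.

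**Figure D1:**
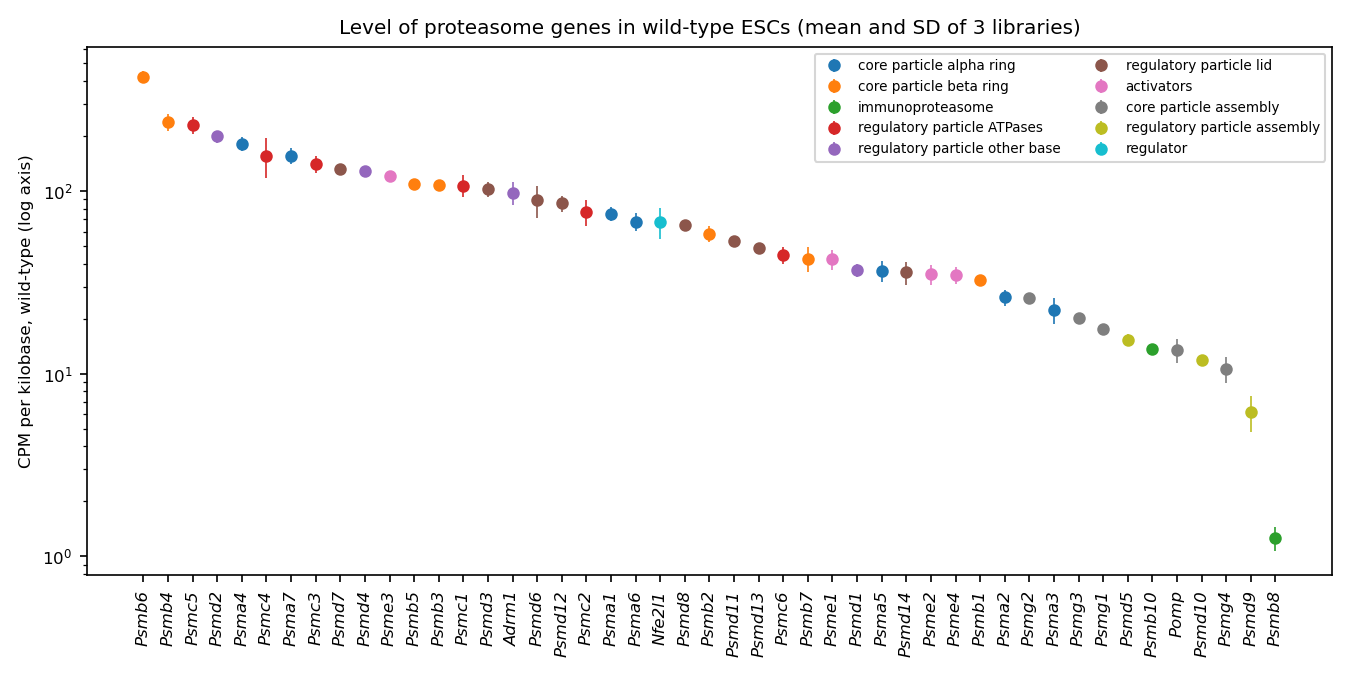
Level of 47 proteasome genes in wild-type ESCs, in CPM per kilobase of the longest coding transcript on a log axis, ordered from high to low, with points for the mean and bars for the SD of 3 libraries, and colours for the role of the protein. *Psmb6* stands at 422 and *Psmb4* at 239.6, assembly factors lie at the low end and *Psmb8* lies at 1.25.

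The main question was whether S138A mutant ESCs hold other levels of proteasome RNA than wild-type ESCs. Of the 47 genes, 45 (95.7%) had a log2 fold change below 0 (S138A against wild-type), against 47.6% of all genes tested, and the median was -0.23 against 0.02 over all genes. The exceptions were *Psmg4* at 0.33 and *Psmd9* at 0.13. The proteasome genes together took 0.617%, 0.609% and 0.614% of all counts in WT 1 to 3 and 0.571%, 0.592% and 0.479% in S138A A to C, so the groups did not overlap. S138A C lay furthest from the rest, and without it 33 of the 47 genes lay below 0 (51.7% of all genes) with a median of -0.12. With the 4 libraries WT 1, WT 2, S138A A and S138A B alone, 40 lay below 0 (49.5% of all genes) and the median was -0.18. These values describe the genes, and no test was made of them as a group.

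Single libraries moved the size of many of these differences. The log2 fold change of 28 genes moved by over 1.5 times without S138A C, in 26 of them towards 0 or past it, and that of 9 to 18 genes without each of the other libraries. In 15 of the 47 genes it moved by less than 1.5 times with each library left out and with the 4 libraries alone. These were *Psma2*, *Psma4*, *Psma7*, *Psmb1*, *Psmb8*, *Psmc6*, *Psmd1*, *Psmd7*, *Psmd10*, *Psmd11*, *Psmd12*, *Psme2*, *Psme4*, *Psmg2* and *Pomp*.

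Gene by gene, no difference passed edgeR's test of the 2 groups, while DESeq2 called some. edgeR's quasi-likelihood test called 0 of the 47 genes at an adjusted p under 0.05, and 0 of all 16023 genes (percent called 0 in each direction). At an unadjusted p under 0.05 it gave 12 proteasome genes lower (25.5%) and 0 higher, where 6.55% of all genes were lower and 7.62% higher. DESeq2 called *Psme4* lower and no other of the 47 genes, where it called 2.33% of all genes lower and 2.62% higher, and limma-voom called 0 genes in all. In 17 of the 47 genes (36.2%) all 3 S138A libraries lay below all 3 wild-type libraries, against 10.9% of all genes. The reverse held for *Psmg4* alone (2.13%), against 11.3% of all genes.

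More genes were called once the libraries were compared within numbers. The column names of the S138A libraries end in the digits 1 to 3, and a fit with this digit as a replicate block called 15 of the 47 genes lower (31.9%) and 0 higher, where it called 9.13% of all genes lower and 10.7% higher. The 15 were *Psma2*, *Psma4*, *Psma6*, *Psma7*, *Psmb6*, *Psmb8*, *Psmc5*, *Psmd1*, *Psmd7*, *Psmd11*, *Psmd12*, *Psme2*, *Psme3*, *Psme4* and *Pomp*. A term that sets WT 3 and S138A C against the other 4 libraries called 23 lower (48.9%, against 13% of all genes) and 0 higher. The 4 other libraries alone called 17 lower (36.2%, against 14.3% of all genes) and 0 higher, and there the groups of 2 were apart and lower in 32 genes (68.1%, against 33.4% of all genes) and apart and higher in 4 (8.51%, against 34.9%). The pairing rests on column names and not on a stated design, so the calls with the block are given beside the test without it, as "with the block", and log2 fold changes are those without it unless said otherwise. The term and the choice of the 4 libraries follow a split seen in these same counts and not a stated label. Their p-values may therefore be too small, and their calls serve as description. Since RNA was read from whole cultures, less RNA per cell and fewer cells that express a gene cannot be told apart.

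**Figure D2:**
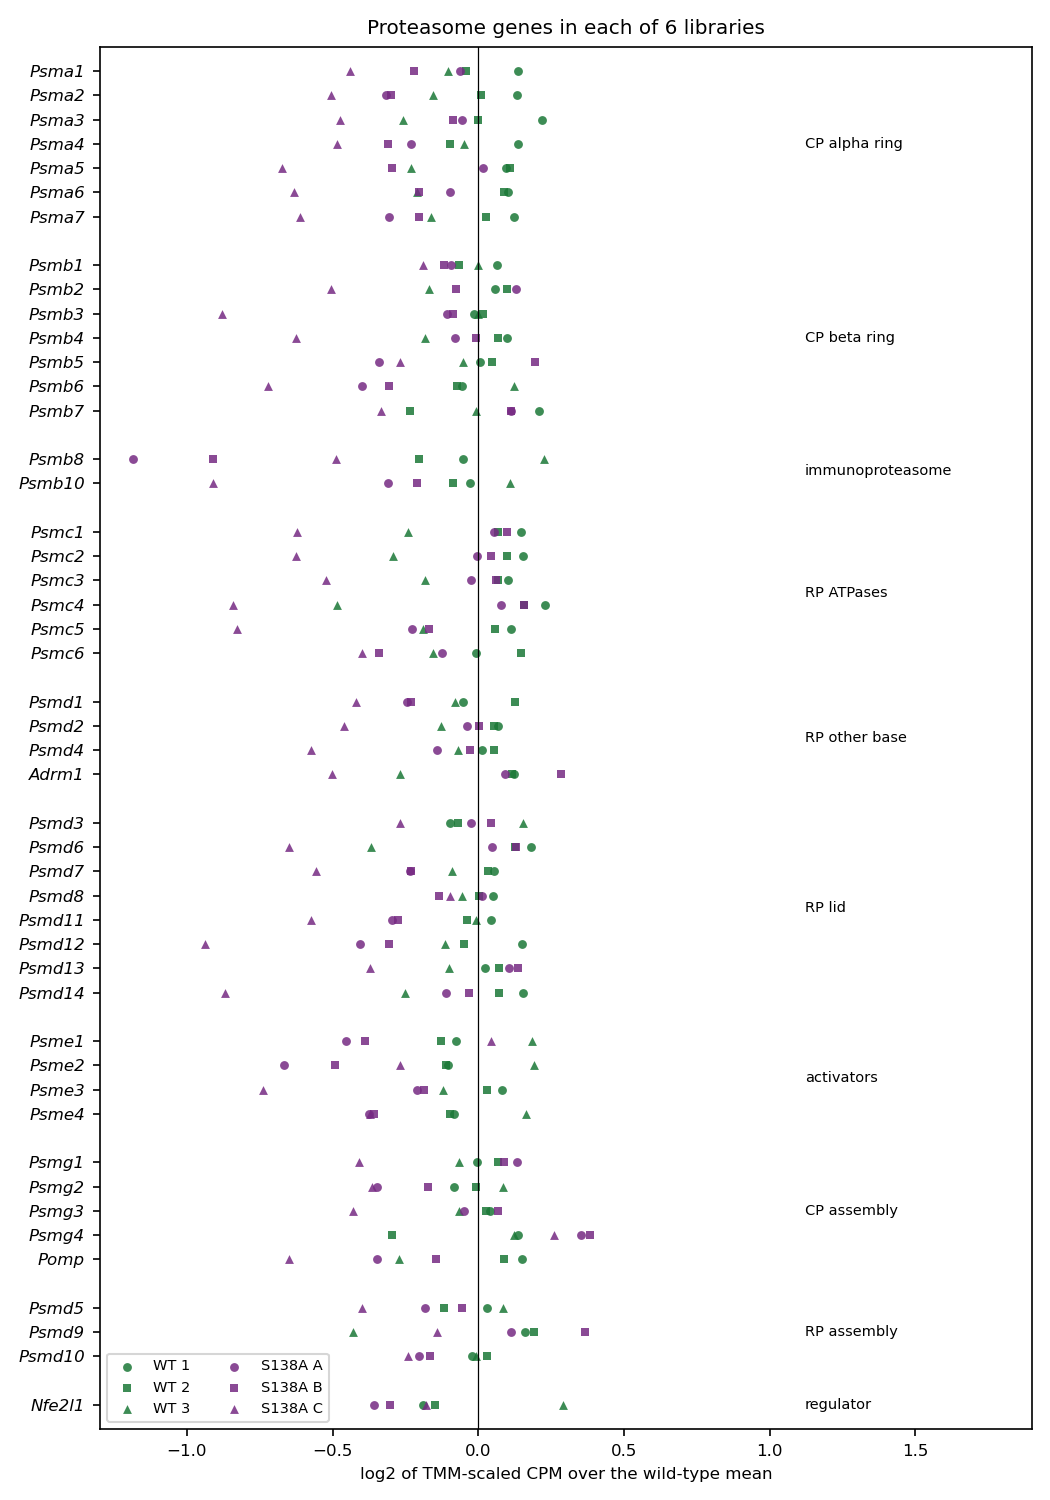
Level of each proteasome gene in each of 6 libraries, as log2 of the TMM-scaled CPM over the wild-type mean on a linear axis, with colours for the genotype, shapes for the library, and rows grouped by role (CP, core particle; RP, regulatory particle). Most S138A points lie left of 0, and S138A C is the leftmost S138A library in 40 of 47 genes.

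**Figure D3:**
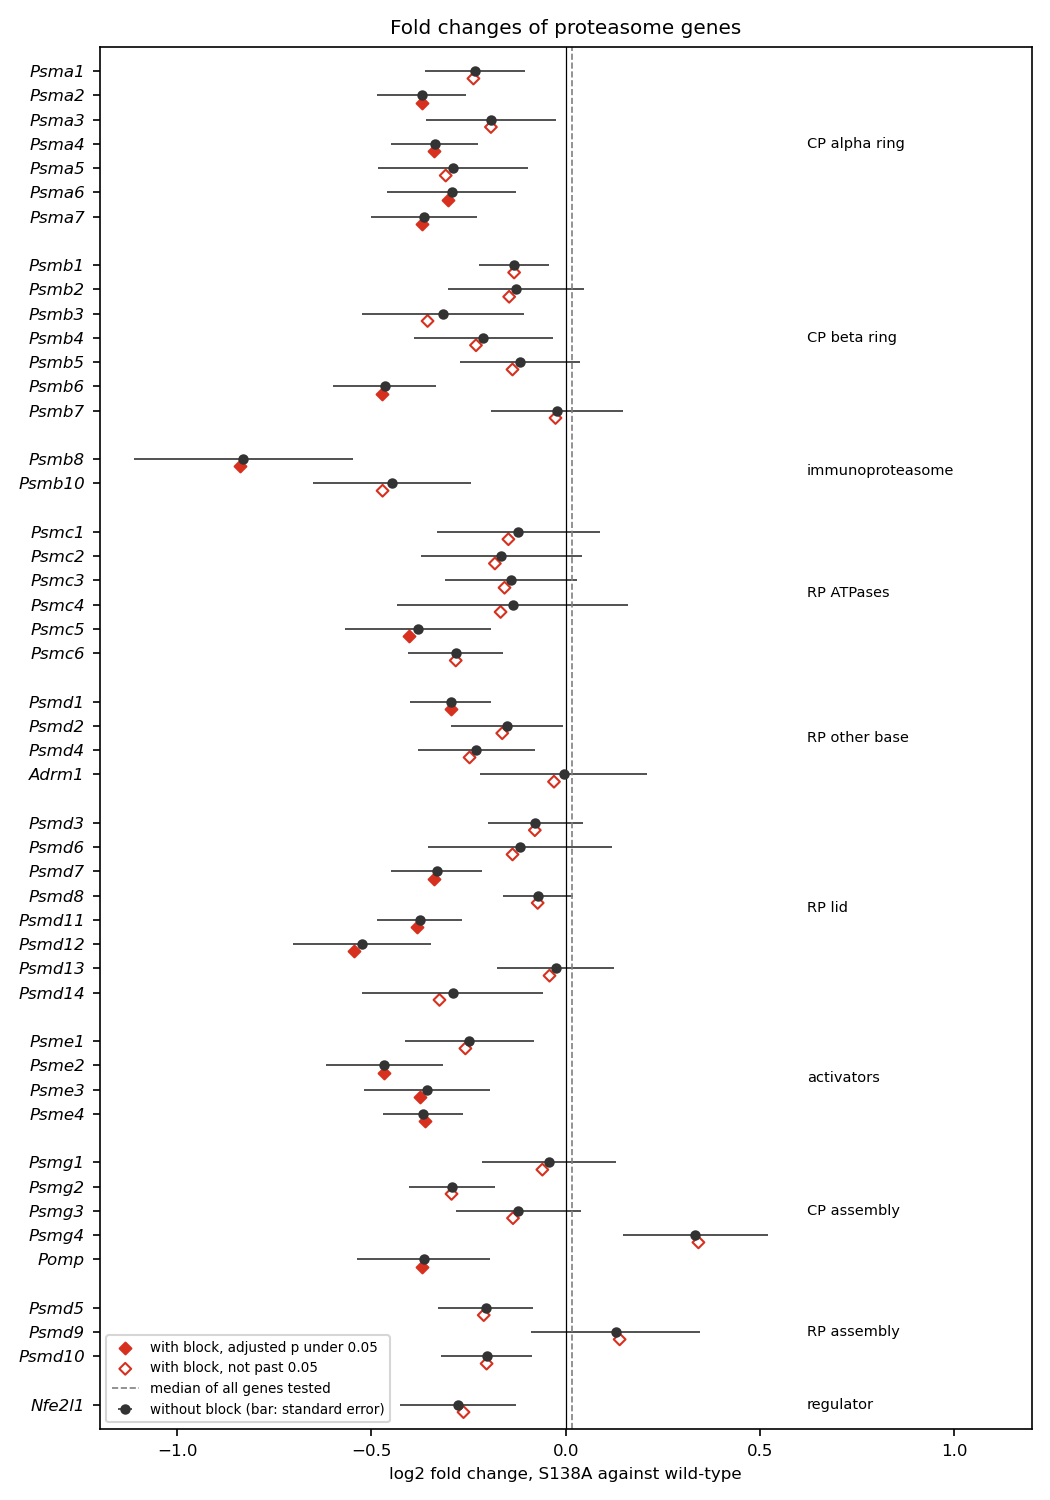
Log2 fold change of each proteasome gene, S138A against wild-type ESCs, with black points and bars for the fit without a block and its standard error and red diamonds for the fit with the replicate block, filled where the adjusted p is under 0.05. Of the 47 genes, 45 lie left of 0 and 15 diamonds are filled, while the median of all genes tested, the dashed line, is 0.02.

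The alpha ring, whose subunits close the entry of the core particle, was lower in value in S138A mutant ESCs for every gene. All 7 had a log2 fold change below 0, from -0.37 to -0.19 with a median of -0.29, and 4 of 7 were called lower with the block (9.13% of all genes). *Psma2* read 83.4, 76.7 and 68.4 CPM in WT 1 to 3 and 61.1, 61.9 and 53.7 CPM in S138A A to C. Every S138A library lay below every wild-type library, with a log2 fold change of -0.37 (SE 0.11, adjusted p = 0.250, with the block 0.0159).

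*Psma4* and *Psma7* were likewise apart. *Psma4* read 232, 197 and 204 CPM in WT 1 to 3 and 179.7, 170.3 and 151 CPM in S138A A to C (log2 fold change -0.34, adjusted p = 0.268, with the block 0.0205). *Psma7* read 196, 184 and 161 CPM in WT 1 to 3 and 146, 157 and 118 CPM in S138A A to C (log2 fold change -0.36, adjusted p = 0.310, with the block 0.0170). In *Psma6* the groups overlapped, because WT 3 lay among the S138A libraries, at 76.1, 75.5 and 61.3 CPM in WT 1 to 3 and 66.3, 61.6 and 45.8 CPM in S138A A to C. With the block it was called lower (log2 fold change -0.30, adjusted p = 0.0302), and without it the log2 fold change was -0.29 (adjusted p = 0.480), or -0.15 without S138A C. The other 3 genes, *Psma1*, *Psma3* and *Psma5*, overlapped between the groups and had an adjusted p of 0.0516 to 0.102 with the block. Without S138A C their log2 fold changes went from -0.23 to -0.14, from -0.19 to -0.07 and from -0.29 to -0.14. *Psma5* is less certain than the rest, since 55.4% of its 50-base windows also occur in other annotated genes. This share was 31.5% for *Psma4* and 22.0% for *Psma3*. Of the 47 genes, 14 had a share over 10% and 5 a share over 50%.

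The 7 constitutive genes of the beta ring were also below 0, with a median of -0.13. Of the subunits that carry the protease sites, *Psmb6*, the caspase-like site, differed most. It read 324, 320.1 and 366 CPM in WT 1 to 3 and 255, 273 and 204 CPM in S138A A to C, and the groups did not overlap. Its log2 fold change was -0.47 (SE 0.13, adjusted p = 0.225, with the block 0.0296). S138A C gave the lowest value, and the 4 other libraries alone gave -0.29 (adjusted p = 0.00853).

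The other protease sites did not show such a gap. *Psmb5*, the chymotrypsin-like site, read 99.0, 102 and 95.2 CPM in WT 1 to 3 and 77.9, 113 and 82.0 CPM in S138A A to C, so S138A B lay above every wild-type library. *Psmb7*, the trypsin-like site, read 57.3, 42.1 and 49.3 CPM in WT 1 to 3 and 53.5, 53.5 and 39.3 CPM in S138A A to C, with a log2 fold change of -0.02 that was 0.10 with the 4 libraries alone. Without S138A A or without S138A C, *Psmb5* had -0.02 and -0.05. Neither passed a test (-0.12 for *Psmb5*, adjusted p = 0.773, with the block 0.363, and for *Psmb7* adjusted p = 0.970, with the block 0.898). The differences between these 3 genes were not tested, and 57.1% of the 50-base windows of *Psmb5* also occur in other genes.

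Among the structural beta subunits, *Psmb3* read 81.4, 83.1 and 82.2 CPM in WT 1 to 3 and 76.3, 77.4 and 44.6 CPM in S138A A to C. WT 1 to 3 lay close together, S138A A and B lay a little below them and S138A C lay far lower, so its log2 fold change of -0.31 was -0.10 with the 4 libraries alone. Of its 50-base windows, 55.8% also occur in other genes. *Psmb1* also had groups that did not overlap, by -0.13 (adjusted p = 0.553, with the block 0.214). *Psmb2* (-0.13) and *Psmb4* (-0.21) overlapped, and without S138A C they had 0.03 and -0.05.

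Of the immunoproteasome subunits, which replace the constitutive protease sites in cells that received interferon, *Psmb8* was rare in these ESCs. *Psmb10* had 13.7 CPM per kilobase in wild-type ESCs, within the range of the core particle assembly factors (10.6 to 26.0). *Psmb8*, which takes the place of *Psmb5*, had 65, 56 and 91 counts in WT 1 to 3 and 31, 40 and 54 counts in S138A A to C. These are 1.97, 1.77 and 2.39 CPM in WT 1 to 3 and 0.898, 1.09 and 1.46 CPM in S138A A to C. Every S138A library lay below every wild-type library, and the log2 fold change of -0.83 was the furthest from 0 of the 47 genes (SE 0.28, adjusted p = 0.278, with the block 0.0315). Per 100 reads of *Psmb5*, *Psmb8* had 1.99, 1.74 and 2.51 reads in WT 1 to 3 and 1.15, 0.963 and 1.78 in S138A A to C, and S138A C lay above WT 2.

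*Psmb10*, which takes the place of *Psmb7*, read 17.6, 16.9 and 19.3 CPM in WT 1 to 3 and 14.4, 15.5 and 9.52 CPM in S138A A to C. The groups did not overlap, but S138A A and B lay close to WT 2 and S138A C was far lower. The log2 fold change was -0.45 (adjusted p = 0.385, with the block 0.0898) and -0.21 with the 4 libraries alone, or -0.26 without S138A C. Per 100 reads of *Psmb7* there were 30.6, 40.1 and 39.2 reads of *Psmb10* in WT 1 to 3 and 26.9, 28.9 and 24.2 in S138A A to C. In S138A C the level of *Psmb8* was the highest of the S138A libraries while that of *Psmb10* was the lowest.

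**Figure D4:**
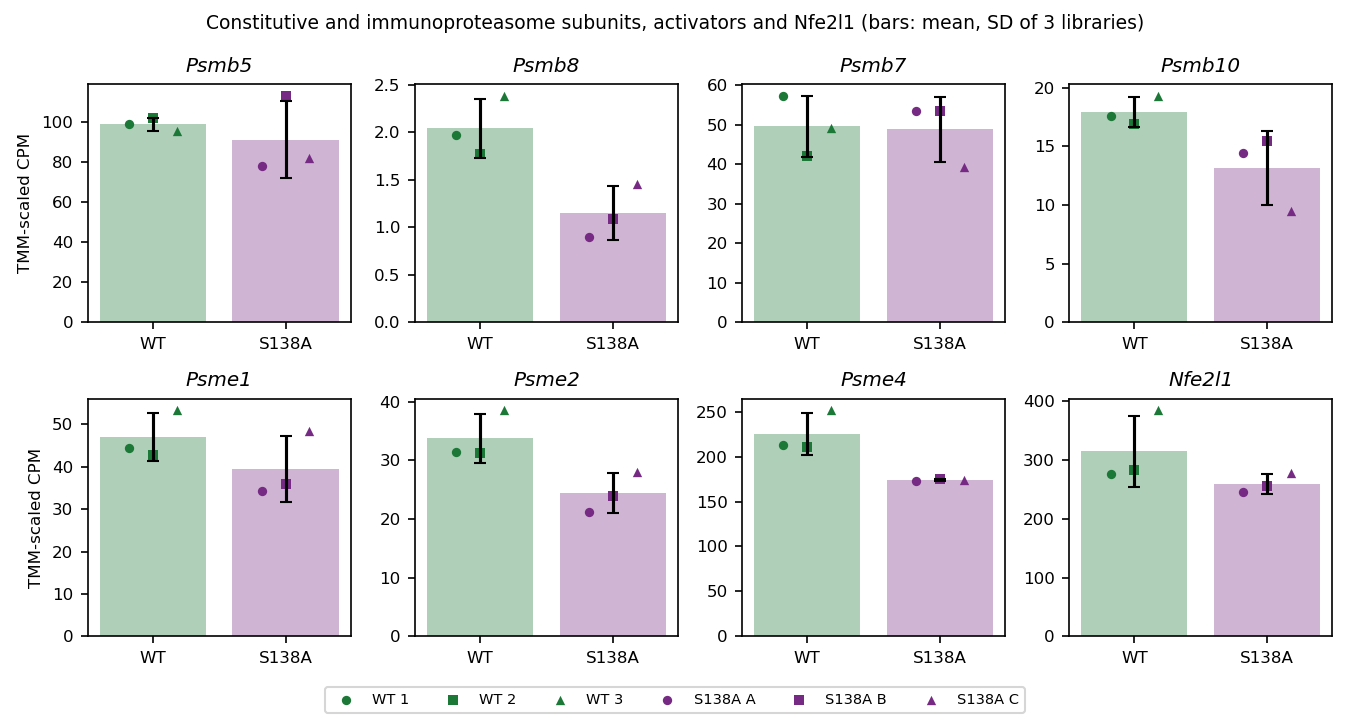
TMM-scaled CPM of protease site subunits with their immunoproteasome counterparts, of activators and of *Nfe2l1*, with bars for the mean and SD of 3 libraries per genotype and points for single libraries. Of the 8 genes plotted, *Psmb8*, *Psmb10*, *Psme2* and *Psme4* have no overlap between the genotypes and are lower in S138A (10.9% of all genes). *Psmb5*, *Psmb7*, *Psme1* and *Nfe2l1* overlap.

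The ATPases of the regulatory particle, which pull substrates into the core, were lowest in WT 3 and in S138A C within each group, in all 6 genes. All 6 had a log2 fold change below 0, with a median of -0.15. The groups were apart in 0 of 6, where 10.9% of all genes were apart and lower and 11.3% apart and higher. *Psmc4* read 264, 251 and 161 CPM in WT 1 to 3 and 238, 251 and 126 CPM in S138A A to C, so WT 3 lay far below the other wild-type libraries and S138A C lay far below the other S138A libraries. Its log2 fold change was -0.14 (SE 0.30, adjusted p = 0.870) and turned to 0.12 without S138A C. *Psmc1*, *Psmc2* and *Psmc3* (-0.12, -0.17 and -0.14) turned as well without S138A C, to 0.07, 0.02 and 0.01.

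Of the ATPase genes, *Psmc5* was called lower with the block. It read 327, 315 and 266 CPM in WT 1 to 3 and 258, 269 and 171 CPM in S138A A to C, with WT 3 just below S138A B. Its log2 fold change was -0.38 (adjusted p = 0.421, with the block 0.0227), and -0.20 without S138A C. *Psmc6*, whose promoter holds 1 of the matches shown, read 98.9, 110.1 and 89.2 CPM in WT 1 to 3 and 91.2, 78.4 and 75.4 CPM in S138A A to C (log2 fold change -0.28, adjusted p = 0.364, with the block 0.0572).

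The rest of the base holds the large scaffold subunits PSMD1 and PSMD2 and the ubiquitin receptors PSMD4 and ADRM1. *Psmd1* read 111, 125 and 108 CPM in WT 1 to 3 and 96.8, 97.6 and 85.7 CPM in S138A A to C. The groups did not overlap, and the log2 fold change was -0.30 (SE 0.10, adjusted p = 0.293, with the block 0.0274). *Psmd2*, the proteasome gene with the highest CPM, read 618, 612 and 539 CPM in WT 1 to 3 and 575, 590.4 and 428 CPM in S138A A to C, with overlapping groups and a log2 fold change of -0.15 that was -0.02 without S138A C. Both receptor genes overlapped too.

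*Psmd4* had a log2 fold change of -0.23, which was -0.09 without S138A C, and *Adrm1* had -0.01. *Adrm1* read 164, 163 and 125 CPM in WT 1 to 3 and 160.4, 183 and 106 CPM in S138A A to C, so the highest library was S138A B and the lowest S138A C. The sign of its fold change depended on the setting, and 78.0% of its 50-base windows also occur in another annotated gene. Of the genes with a promoter match, *Adrm1*, *Psmb5*, *Psmc6* and *Psmd9* were not called with the block, while *Psmb6*, *Psmd12* and *Psme4* were called lower.

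The lid, which removes ubiquitin chains, held 8 genes below 0 with a median of -0.20. *Psmd12*, a scaffold of the lid, differed most. It read 186, 162 and 155 CPM in WT 1 to 3 and 126, 135 and 87.4 CPM in S138A A to C, and the groups did not overlap. The log2 fold change was -0.52 (SE 0.18, adjusted p = 0.274, with the block 0.0167) and -0.41 with the 4 libraries alone.

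*Psmd11*, a lid subunit known for its high level in human ESCs, read 156, 147 and 150.3 CPM in WT 1 to 3 and 123, 125 and 101 CPM in S138A A to C (log2 fold change -0.38, adjusted p = 0.228, with the block 0.0209). *Psmd7*, the partner of the deubiquitinase in the lid, read 218, 215 and 197 CPM in WT 1 to 3 and 178, 179 and 143 CPM in S138A A to C (log2 fold change -0.33, adjusted p = 0.294, with the block 0.0198). In both genes the 3 S138A libraries lay below the 3 wild-type libraries. Of the 50-base windows of *Psmd11*, 18.9% also occur in other annotated genes. The deubiquitinase itself, *Psmd14*, overlapped, at 61.4, 58.0 and 46.4 CPM in WT 1 to 3 and 51.1, 54.1 and 30.2 CPM in S138A A to C (log2 fold change -0.29, adjusted p = 0.619, with the block 0.0668), and its log2 fold change was -0.07 without S138A C. The 4 other lid genes, *Psmd3*, *Psmd6*, *Psmd8* and *Psmd13*, had log2 fold changes of -0.12 to -0.03 and overlapping groups. Those of *Psmd3*, *Psmd6* and *Psmd13* turned above 0 without S138A C.

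The activators open the core particle without the ATPase cap, and their values were lower in S138A mutant ESCs in all 4 genes, with a median log2 fold change of -0.36. *Psme4* encodes the nuclear activator known for the degradation of acetylated histones. It read 212, 210.3 and 252 CPM in WT 1 to 3 and 173, 176 and 174 CPM in S138A A to C. The S138A libraries lay close together, and all 3 lay well below every wild-type library. The log2 fold change was -0.37 (SE 0.10, adjusted p = 0.224, with the block 0.0206, with DESeq2 0.0339), and *Psme4* was the proteasome gene that DESeq2 called.

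*Psme3*, another nuclear activator, read 341, 329 and 296 CPM in WT 1 to 3 and 278, 283 and 193 CPM in S138A A to C (log2 fold change -0.36, adjusted p = 0.385, with the block 0.0274). S138A A and B lay just below WT 3, S138A C lay far lower, and without S138A C the log2 fold change was -0.20. *Psme1* and *Psme2* encode the joint subunits of the activator that interferon induces. *Psme2* read 31.4, 31.3 and 38.6 CPM in WT 1 to 3 and 21.3, 24.0 and 28.0 CPM in S138A A to C, with no overlap (log2 fold change -0.47, SE 0.15, adjusted p = 0.260, with the block 0.0128).

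*Psme1* read 44.5, 42.9 and 53.3 CPM in WT 1 to 3 and 34.3, 35.8 and 48.3 CPM in S138A A to C, and S138A C lay above WT 1 and WT 2 (log2 fold change -0.25, adjusted p = 0.549, with the block 0.0571). The log2 fold change was -0.42 without S138A C and -0.15 without WT 3. WT 3 and S138A C were the highest libraries of their groups for both genes, unlike most proteasome genes. Per 100 reads of *Psme1* there were 70.6, 73.0 and 72.3 reads of *Psme2* in WT 1 to 3 and 62.1, 67.0 and 57.9 in S138A A to C, so that this ratio did not overlap between the genotypes. Of the 50-base windows of *Psme2*, 59.3% also occur in other genes, among them the copy *Psme2b*, and how reads that fit several genes were counted is not stated.

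Assembly factors, which put the particles together and then leave, included both genes with a fold change above 0. *Pomp*, the factor that matures the core particle, read 57.3, 55.0 and 42.7 CPM in WT 1 to 3 and 40.6, 46.7 and 32.9 CPM in S138A A to C, and WT 3 lay between S138A A and S138A B. It was called lower with the block (log2 fold change -0.37, adjusted p = 0.398, with the block 0.0219). The chaperones of the alpha ring differed in sign. *Psmg2* read 31.9, 33.6 and 35.8 CPM in WT 1 to 3 and 26.5, 30.0 and 26.2 CPM in S138A A to C, with the S138A libraries below the wild-type libraries (log2 fold change -0.29, adjusted p = 0.313, with the block 0.0524).

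*Psmg4* had the opposite order. It read 6.45, 4.78 and 6.40 CPM in WT 1 to 3 and 7.50, 7.67 and 7.04 CPM in S138A A to C, so every S138A library exceeded every wild-type library. No test called it (log2 fold change 0.33, SE 0.19, adjusted p = 0.476, with the block 0.143), and at 151 to 282 counts it was, after *Psmb8*, the gene with the fewest reads of the 47. Without WT 2 its log2 fold change was 0.20. *Psmg1* (-0.04) and *Psmg3* (-0.12) overlapped, and without S138A C they had 0.11 and 0.01. Of the chaperones of the regulatory particle, *Psmd10* read 16.7, 17.3 and 16.9 CPM in WT 1 to 3 and 14.7, 15.1 and 14.3 CPM in S138A A to C, with no overlap (log2 fold change -0.20, adjusted p = 0.485, with the block 0.150). *Psmd5* had -0.21 (-0.08 with the 4 libraries alone) and *Psmd9* 0.13, both with overlap, and *Psmd9* turned below 0 without WT 3 or without S138A B.

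*Nfe2l1*, the transcription factor of the proteasome genes, read 276, 284 and 385 CPM in WT 1 to 3 and 246, 255 and 278 CPM in S138A A to C. S138A C lay above WT 1 and just below WT 2, so the groups overlapped. The log2 fold change was -0.28 (SE 0.15, adjusted p = 0.456, with the block 0.0586), and it was -0.11 without WT 3 and -0.16 with the 4 libraries alone. The term for WT 3 and S138A C called *Nfe2l1* lower (adjusted p = 0.0293), and the 4 libraries alone did not (adjusted p = 0.0527). WT 3 had the highest *Nfe2l1* level of the 6 libraries, while for most proteasome genes it was the lowest wild-type library. Genes with a promoter match had a median log2 fold change of -0.28 (7 genes, from -0.52 to 0.13, 3 called lower with the block) and those with a promoter but no match had -0.25 (33 genes, 11 called lower), where the block called 9.13% of all genes lower.

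Summed over all 47 genes, the level was 6320 ± 309 CPM in wild-type and 5339 ± 818 CPM in S138A mutant ESCs (SD, n = 3 each). The sums were 6581, 6400 and 5978 CPM in WT 1 to 3 and 5711, 5905 and 4401 CPM in S138A A to C. The groups did not overlap, but S138A B and WT 3 lay close together. By role, the sums of the alpha ring (738 ± 69.4 against 593 ± 73.9 CPM), the beta ring (965 ± 17.6 against 799 ± 136 CPM), the activators (627 ± 13.3 against 489 ± 40.8 CPM), the lid (1154 ± 47.9 against 986 ± 145 CPM) and the immunoproteasome (19.9 ± 1.57 against 14.3 ± 2.93 CPM) did not overlap. Those of the ATPases (1190 ± 168 against 1029 ± 244 CPM), the other base genes (1082 ± 81.0 against 968 ± 171 CPM) and both kinds of assembly factors overlapped.

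**Figure D5:**
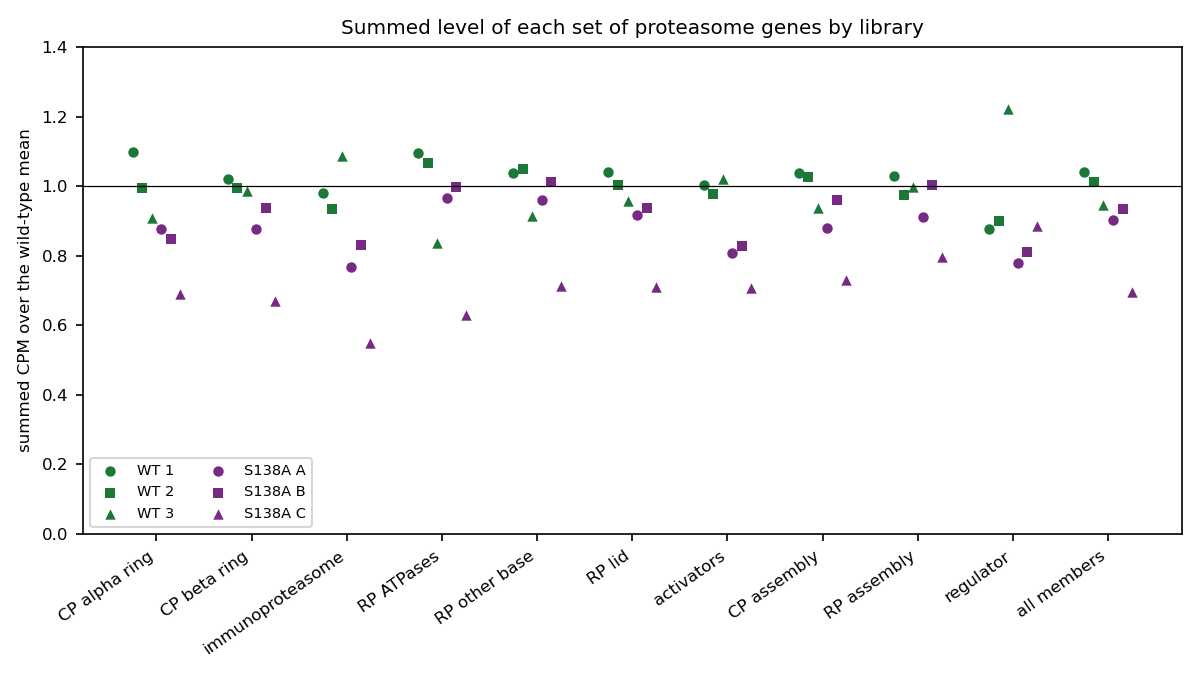
Summed TMM-scaled CPM of each group of proteasome genes in each of 6 libraries, divided by the wild-type mean, with colours for the genotype and shapes for the library. The S138A libraries lie below the wild-type libraries for the activators at 0.81, 0.83 and 0.71, while for the ATPases S138A A and B lie at 0.97 and 1.00 and WT 3 at 0.84.

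The 2 libraries that stood apart were often the lowest of their own groups. WT 3 was the lowest wild-type library for 30 of the 47 genes (63.8%, against 44.4% of all genes), and S138A C was the lowest S138A library for 40 (85.1%, against 44.6%). In 28 genes (59.6%, against 33.8%) both held, among them all 6 ATPases and all 4 other base genes. The median difference of WT 3 from the mean of WT 1 and WT 2 was -0.13 on the log2 scale, and that of S138A C from the mean of S138A A and B was -0.40.

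For the ATPases these medians were -0.31 and -0.64. They ran the other way, with both libraries highest in their groups, in 4 genes (8.51%, against 34.0% of all genes): *Psmb8*, *Psme1*, *Psme2* and *Nfe2l1*. Between the libraries that stood apart, S138A C lay below WT 3 in 45 of the 47 genes, with a median difference of -0.38 on the log2 scale, against 0.01 over all genes. Between the other 4 libraries the median was -0.18, and the difference between these 2 medians was not tested.

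Other genes of the pathway were read from lists of partners and regulators. Of 20 genes for proteins that work with the proteasome or belong to it, 15 had a log2 fold change below 0 and 5 above, with a median of -0.10. Shuttle factors, deubiquitinases and the *Vcp* unfoldase were among them. With the 4 libraries alone 4 were called lower (14.3% of all genes) and 2 higher (15.3%). With the block 2 were called lower (9.13% of all genes) and 0 higher (10.7%). The 2 called lower with the block were the proteasome-bound deubiquitinases *Uchl5*, which docks on ADRM1, and *Usp14*. *Uchl5* read 43.3, 40.4 and 43.9 CPM in WT 1 to 3 and 26.8, 34.5 and 27.1 CPM in S138A A to C, so the groups did not overlap (log2 fold change -0.53, adjusted p = 0.199, with the block 0.0184, with DESeq2 0.0179). *Usp14* read 115, 109.5 and 101 CPM in WT 1 to 3 and 102, 92.1 and 81.2 CPM in S138A A to C (log2 fold change -0.25, adjusted p = 0.395, with the block 0.0399). The shuttle factor *Ubqln1* (-0.18, adjusted p = 0.379, with the block 0.0760) and *Vcp* (-0.21, adjusted p = 0.435, with the block 0.0636) did not pass in these 2 fits. Both were called lower with the term for WT 3 and S138A C (adjusted p = 0.0339 for *Ubqln1* and 0.0273 for *Vcp*). With the 4 libraries alone they were called lower too (adjusted p = 0.0292 and 0.0112).

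Among 13 genes for the processing and the family of NFE2L1, 7 lay below 0 and the median was -0.01. With the block 2 were called higher (10.7% of all genes) and 1 lower (9.13%). *Bach2* (0.36, adjusted p = 0.310, with the block 0.0402), a repressor at the same elements, and *Syvn1* (0.25, adjusted p = 0.673, with the block 0.0479), a ubiquitin ligase of the endoplasmic reticulum, were called higher. *Ddi2*, the protease that activates NFE2L1, was called lower with the block (-0.27, adjusted p = 0.578, with the block 0.0457), at 114, 114 and 76.1 CPM in WT 1 to 3 and 92.9, 90.5 and 69.3 CPM in S138A A to C. edgeR with neither a block nor a term for libraries called none of these 13 genes, while the term for WT 3 and S138A C called 3 higher and 2 lower and the 4 other libraries alone called 3 higher and 1 lower. WT 3 lay far below the other wild-type libraries for *Ddi2* and *Syvn1*. *Nfe2*, a blood-cell member of the family, had -1.64 at a level of at most 1.05 CPM (adjusted p = 0.270, with the block 0.0624). Of the small partner proteins, *Mafk* (0.32, adjusted p = 0.569, with the block 0.0571) was called higher with the 4 libraries alone (0.32, adjusted p = 0.0329), with groups that overlapped among all 6, and *Mafg* (-0.15) and *Maff* (0.29) were not called with the block.

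Of 8 genes known as targets of NFE2L2, 7 lay below 0, with a median of -0.23. With the block 4 were called lower, where 9.13% of all genes were, and without it 0 of 8. They were *Gclm* (-0.41, adjusted p = 0.398, with the block 0.0116), *Hmox1* (-0.36, adjusted p = 0.695, with the block 0.0198), *Nqo1* (-0.30, adjusted p = 0.497, with the block 0.0434) and *Slc7a11* (-1.34, adjusted p = 0.225, with the block 0.0365, under 1 CPM in every library). The groups overlapped in *Gclm*, *Hmox1* and *Nqo1*, and did not in *Slc7a11*. *Gclc* had -0.17 and was not called with the block, but was called lower with the 4 libraries alone (-0.27, adjusted p = 0.0282). *Srxn1* had 0.22, in the other direction, and was not called with the block (adjusted p = 0.0530). It was called higher with the term for WT 3 and S138A C (adjusted p = 0.0267) and with the 4 libraries alone (adjusted p = 0.0399). *Ddi2*, *Syvn1*, *Mafk*, *Hmox1* and *Srxn1* were chosen after their values were seen, and the other genes of these lists by their p-values.

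The genes for antigen processing, which use the peptides that the immunoproteasome makes, had values in both directions. Of 10 genes, 6 lay below 0, with a median of -0.06, and with the block 2 were called higher (10.7% of all genes) and 1 lower (9.13%). *Tap1*, a subunit of the peptide transporter, was called higher with the block (4.87, 4.59 and 8.41 CPM in WT 1 to 3 and 7.91, 7.61 and 16.4 CPM in S138A A to C, log2 fold change 0.83, adjusted p = 0.392, with the block 0.00994, groups overlapping). *Tapbp*, which links the transporter to MHC class I, was also called higher (0.38, adjusted p = 0.227, with the block 0.0179), and DESeq2 called it as well (adjusted p = 0.0496). *Irf1*, an interferon response factor, was called lower with the block (-0.39, adjusted p = 0.305, with the block 0.0148). *Nlrc5*, a transactivator of MHC class I genes, had 0.64 and was not called.

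Markers of other cells were low, but some were higher in S138A mutant ESCs. The sum of 10 ESC markers ranged from 7036 to 7912 CPM in wild-type and from 7252 to 7892 CPM in S138A mutant ESCs. Within it, *Zfp42* was called lower with the block (-0.35, adjusted p = 0.337, with the block 0.0321, groups apart) and *Klf4* higher (0.41, adjusted p = 0.371, with the block 0.0251, groups overlapping). The sum of 8 fibroblast or feeder markers ranged from 43.0 to 72.6 CPM and from 79.2 to 115 CPM, and 3 of them did not overlap and were higher in S138A mutant ESCs, *Col1a1*, *Col3a1* and *Thy1* (11.3% of all genes did so). *Postn* (0.37), *Pdgfrb* (0.40) and *Col1a2* (-0.26) overlapped, and *Lum* and *Dcn* were under 0.2 CPM in every library. *Col1a1* read 21.1, 20.5 and 36.1 CPM in WT 1 to 3 and 68.8, 75.0 and 37.9 CPM in S138A A to C (log2 fold change 1.22, adjusted p = 0.210, with the block 0.0362). The sum of 6 leukocyte markers ranged from 24.9 to 26.3 CPM and from 31.6 to 33.2 CPM, most of it from *Cd68*, with *Ptprc* and *Cd52* under 0.3 CPM in every library. *Cd68* (0.36, adjusted p = 0.228, with the block 0.0225, with DESeq2 0.0258) was apart and higher in S138A mutant ESCs (11.3% of all genes). So was *Csf1r* (1.08, adjusted p = 0.300, with the block 0.0683), under 1 CPM in every library. *Itgam* (0.12) and *Cd3e* (0.06) overlapped, and *Cd3e* read 0.782, 0.680 and 2.13 CPM in S138A A to C. The sum of 6 primitive endoderm markers ranged from 15.9 to 19.5 CPM and from 18.7 to 25.2 CPM, so the groups overlapped. Of these 6 genes, 3 had a log2 fold change below 0 and 3 above. *Gata6* alone was apart, and it was lower in S138A mutant ESCs (-0.36, adjusted p = 0.508, with the block 0.211, 10.9% of all genes were apart and lower). *Dab2* (0.38) read 17.5 CPM in S138A C and at most 9.78 CPM in the other libraries, and had 0.02 with the 4 libraries alone. The part of these markers in the values of the proteasome genes was not tested.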

How the data were processed

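PolyA RNA of wild-type and S138A mutant ESCs was sequenced in 3 libraries per genotype, each from 500 ng of RNA with a strand-keeping kit. The values deposited by the authors are unnormalised read counts per gene. The submitters' processing notes name CASAVA version 1.8.4, TopHat2 version 2.0.11 with the build mm9 (NCBIM37), and featureCounts, and its version and its treatment of strand and of reads that fit several genes are not given in the sources used here. The authors added spike-in RNA, but the table held 0 spike-in rows and 0 rows without a gene, so only scaling within the genes was possible. Of 37620 genes, 32897 (87.4%) were given a symbol by identifier. All 6 columns were used. Those of the S138A libraries match the labels only as a group and are called A, B and C.

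Counts were analysed in R version 4.3.3. Genes were kept by filterByExpr (minimum count 10, minimum total 15), scaled by TMM and compared with edgeR version 4.0.16 (quasi-likelihood test, Benjamini-Hochberg adjustment over all 16023 genes, threshold 0.05), and members were read from that fit. The study's methods state no test for these data. Standard errors were derived from the log2 fold change and its F statistic (the ratio of the former to the root of the latter). The test was tried first on simulated counts, which held no split of WT 3 and S138A C from the rest. That trial therefore cannot show how the fits deal with this split. Totals of 33227593 to 37169770 counts left little counting error except for *Psmb8* and, less so, *Psmg4*. Alternatives were RLE and upper-quartile factors, other filters on low counts, DESeq2 version 1.42.0, limma-voom (limma version 3.58.1), each library left out, a replicate block, a term for WT 3 and S138A C, the 4 other libraries alone, thresholds of 0.01 and 0.1, plain CPM for overlap, and median transcript lengths. The term and the choice of the 4 libraries follow the split of the libraries in these same counts. The count of genes below 0 under each setting was added after seeing the data. Sequences and figures were handled with Python version 3.11.15.

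Whether libraries pair was examined by correlating deviations from the group means. With the final digit of the column names the correlations were 0.53, 0.493 and 0.753, and with digits 1 and 2 crossed 0.515 and 0.526, so those digits cannot be told apart. The genes and lists were chosen with earlier results of these data known. By the rule for naming, the 47 genes found are reported, and of other lists up to 4 genes by p-value, the stated markers and *Ube2d3*. Protein sequences were not used here.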

Additional observations from a re-analysis of the deposited data

How the results depend on the processing

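edgeR without a block called 0 genes, and the counts turned on the setting. Genes called higher and lower numbered 420 and 374 with DESeq2, 1717 and 1463 with the replicate block, 2338 and 2080 with the term for WT 3 and S138A C, 2463 and 2293 with the 4 other libraries alone, 2 and 2 with every gene of at least 1 count, and 5 and 3 at an adjusted p of 0.1. With 1 library left out in turn they ranged from 0 to 59 higher and from 0 to 20 lower, with 59 and 20 without S138A C. Proteasome genes called lower numbered 1 with DESeq2, 15 with the block, 23 with the term and 17 with the 4 libraries, and 0 with each library left out, with 0 called higher under each setting. The causes of these differences were not tested. With the 4 libraries alone, 32 proteasome genes had groups apart and lower (68.1%, against 33.4% of all genes) and 4 apart and higher (8.51%, against 34.9%).

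The median log2 fold change of the proteasome genes stayed below 0 under each setting, from -0.30 without S138A B to -0.12 without S138A C, and between 33 and 46 of the 47 genes lay below 0. Genes near 0 changed sign. *Psmb7* was 0.0016 with upper-quartile factors and 0.10 with the 4 libraries. *Adrm1* was 0.021 with upper-quartile factors, 0.0014 with at least 1 CPM in 3 libraries and 0.070 with the 4 libraries. With the 4 libraries *Psmd3* was 0.089, *Psmd13* 0.071 and *Psmg1* 0.076. With 1 library left out in turn, ranges that crossed 0 were -0.28 to 0.027 for *Psmb2*, -0.13 to 0.11 for *Psmb7*, -0.25 to 0.072 for *Psmc1*, -0.30 to 0.017 for *Psmc2*, -0.26 to 0.014 for *Psmc3*, -0.33 to 0.12 for *Psmc4*, -0.18 to 0.19 for *Adrm1*, -0.15 to 0.0055 for *Psmd3*, -0.28 to 0.086 for *Psmd6*, -0.12 to 0.12 for *Psmd13*, -0.14 to 0.11 for *Psmg1*, -0.23 to 0.0069 for *Psmg3* and -0.051 to 0.24 for *Psmd9*. None of the genes that changed sign was called with the block. Of the values of single proteasome genes under the alternatives, 622 kept direction and side of the threshold, 56 passed it with the same direction and 27 changed sign. Depth limits *Psmb8* most, then *Psmg4* at 151 to 282 counts, and the low genes of the other lists.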
